A study of Mus musculus with 6 samples.

Results

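The genes described here carry fatty acids into cells and mitochondria, oxidise them in mitochondria and peroxisomes, lead to ketone bodies, or respond to the peroxisome proliferator-activated receptors (PPARs). The set holds 42 genes chosen by symbol, and all 42 were among the 25339 genes of the table. Messenger RNA was measured by RNA sequencing in mouse colon, with 3 libraries from mice given the solvent DMSO and 3 from mice given lenvatinib. Lenvatinib is an oral inhibitor of receptor tyrosine kinases such as those for VEGF, FGF and PDGF. The series title concerns colitis and B cell movement into the gut. The labels used here give no strain, sex, age, dose, route or length of treatment, and do not say whether colitis was induced.

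Cells take up long-chain fatty acids, attach them to coenzyme A, pass them into mitochondria through the carnitine shuttle and shorten them by β-oxidation, while peroxisomes shorten the longest and branched chains. PPARα, PPARδ and PPARγ are nuclear receptors that bind fatty acids and switch on many of these genes as heterodimers with RXR. Colonocytes are known for oxidising butyrate, and they also make ketone bodies from it.

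Levels are FPKM, fragments scaled to gene length and library depth, so they can be compared between genes. Values of single libraries are always in the order 1, 2, 3. Means are given ± SD over n = 3 libraries per group. Each log2 fold change compares lenvatinib with DMSO on log2(FPKM + 1), is given with its standard error (SE), and understates the change of low genes. A gene rose or fell where limma's two-sided test gave an adjusted p under 0.05 (Benjamini-Hochberg over the 11774 genes whose mean reached 1 FPKM).

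Reads in genes ranged from 37609259 to 39233921 per library, so even the member with the fewest reads among those that rose, Angptl4, rested on 135 to 1152 reads. Within each group, libraries 2 and 3 were close to identical. Their differences were 2.53 (DMSO) and 2.29 (lenvatinib) times the variance of counting noise, against 10.2 to 25.2 times for every other pair of libraries. The labels number the libraries as biological replicates without naming animals, so p-values measure only the spread between these libraries, which may in part be technical. DMSO 1 was the only library above 0 for the Y-linked gene Ddx3y (6.54 FPKM) and had almost no Xist (0.00147 FPKM against 15.9 to 19.8 FPKM). By these genes DMSO 1 was male and every other library female, so the DMSO group mixed the sexes and the lenvatinib group did not. The part of sex in the members' changes was not tested, beyond leaving out DMSO 1 below. The 8 colon epithelial markers, among them Car1, Slc26a3, Car4, Aqp8, Muc2 and Krt20, summed to 8976 to 12327 FPKM in the 6 libraries. Hoxb13, also of that list, was at or near 0. Most of each sum was Car1 (7590 to 10357 FPKM), so it says little about the others. Without overlap, Muc2 (174 ± 77.2 and 83.4 ± 11.3 FPKM) and Krt20 (784 ± 7.98 and 673 ± 39.7 FPKM) were lower with lenvatinib. Slc26a3 was higher, also without overlap (175 ± 17.1 and 302 ± 84.0 FPKM). None of these passed. Small intestinal enterocyte and Paneth cell markers also differed between the groups, as given below.

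Of the 41 members with a mean of at least 1 FPKM, 10 rose with lenvatinib and 0 fell, where 1.10% of all genes tested rose and 0.934% fell (2.03% in either direction). The 10 were Vnn1, Angptl4, Pdk4, Acot1, Acot2, Acaa2, Slc25a20, Acadl, Eci2 and Hadha, and the remaining 31 did not pass. At an unadjusted p under 0.05, 20 members were higher and 0 lower, against 7.49% and 14.5% of all genes. Log2 fold changes were above 0 for 36 of 41 members and for 36.1% of all genes. The median was 0.30 for the members and −0.07 for all genes. All 3 lenvatinib libraries lay above all 3 DMSO libraries for 22 members, against 10% of all genes, and below them for 0 members, against 17.5%. The members were chosen with earlier results of these data known, so these comparisons with all genes are descriptive and no test of the set. Leaving out libraries changed the count: only Vnn1 rose without DMSO 2 or without DMSO 3, and only Pdk4 and Vnn1 rose without lenvatinib 2 or without lenvatinib 3. Without DMSO 1 there were 9, with Acaa2 and Eci2 lost and Plin2 gained. Without lenvatinib 1 there were 24, where 9.91% of all genes rose and 28.1% fell. With sample weights 30 rose and 3 fell (Acsl1, Acsl5 and Ucp2), where 19.1% of all genes rose and 45.3% fell. With libraries 2 and 3 of each group averaged and counted as 1 sample, 0 members passed in limma, although Pdk4 and Vnn1 did with these libraries as a random block.

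**Figure D1:**
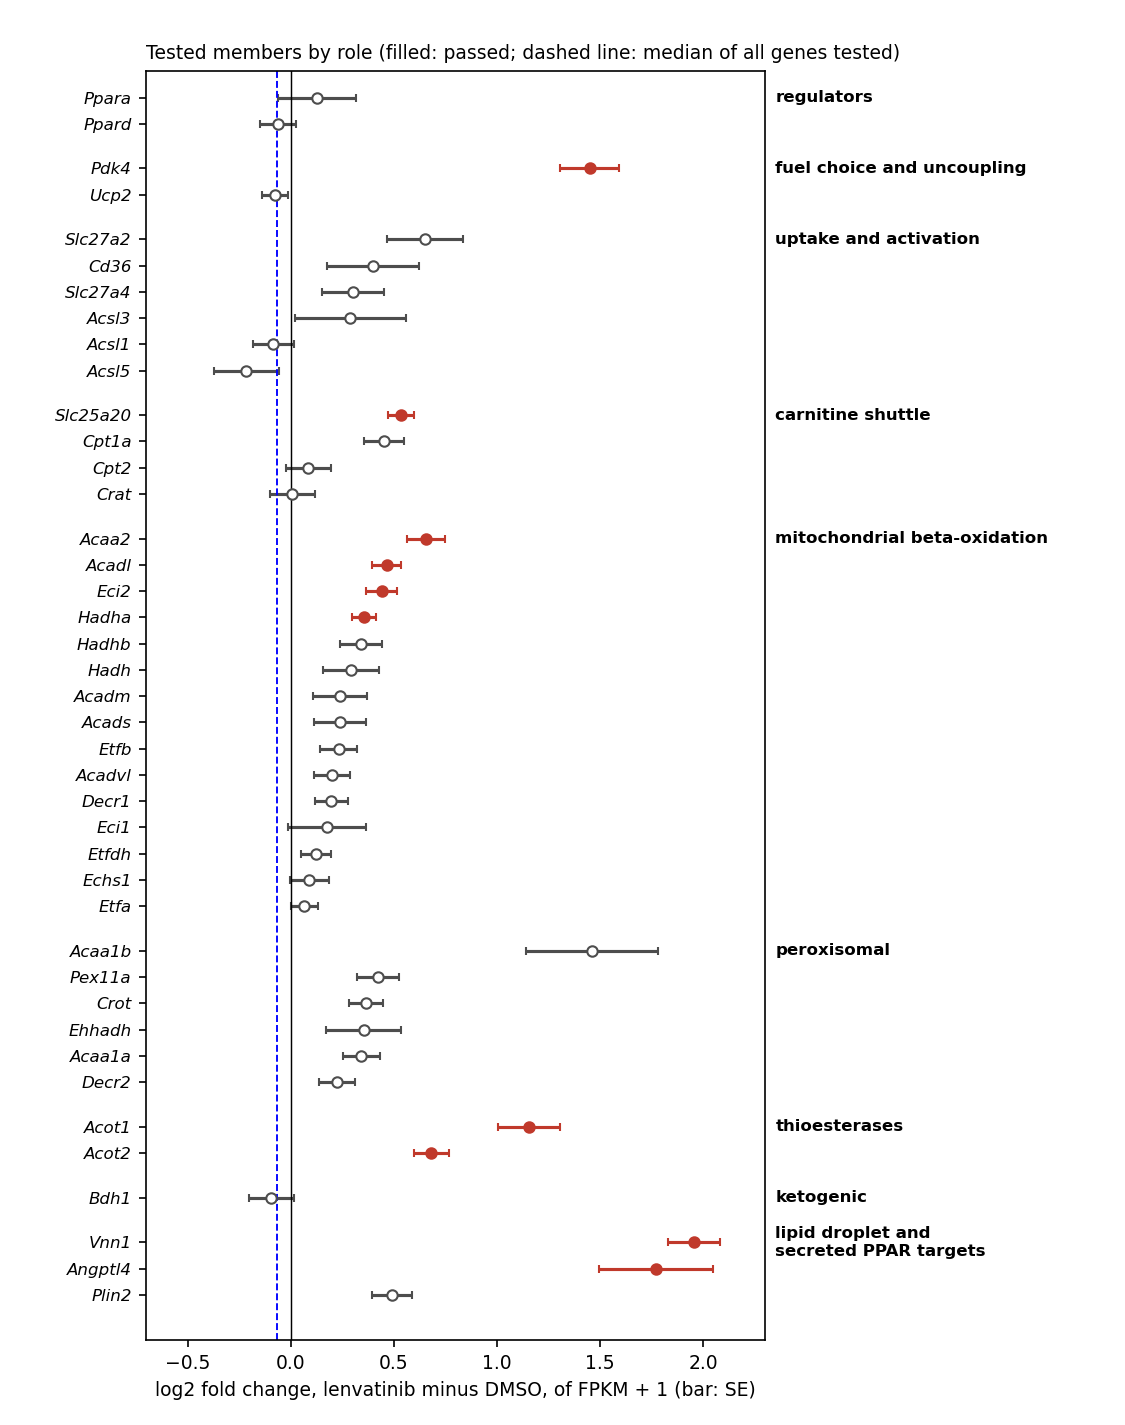
Log2 fold change (lenvatinib minus DMSO, log2 of FPKM + 1) of the 41 tested members, grouped by role, with bars of 1 SE; filled red points passed the test and the dashed line is the median of all genes tested, −0.07. The mitochondrial and peroxisomal points all lie to the right of 0, while the receptors, Ucp2 and Bdh1 lie close to it.

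The PPAR genes themselves did not pass. Ppara, which encodes the main PPAR of fatty acid catabolism, measured 2.78, 4.69 and 4.80 FPKM under DMSO and 3.75, 4.92 and 4.76 FPKM under lenvatinib. The groups overlapped, and DMSO 1 was the lowest library. Ppard, for the widely expressed PPARδ, was far more abundant, at 67.4, 70.9 and 69.8 FPKM under DMSO and 58.6, 68.9 and 72.5 FPKM under lenvatinib. Its log2 fold change of −0.06 (adjusted p = 0.684) turned slightly positive under median-ratio scaling, voom and sample weights, or when lenvatinib 1 was left out. Ppargc1a, the coactivator PGC-1α, stayed just under the filter at 0.902 to 1.15 FPKM over the 6 libraries and was not tested. Among their partners, which are not members, Pparg measured 51.9 ± 9.31 and 52.3 ± 10.2 FPKM and Rxra 40.3 ± 0.603 and 45.3 ± 3.48 FPKM. Creb3l3, a transcription factor that works with PPARα in fasting, measured 4.25, 3.01 and 2.75 against 7.08, 5.85 and 5.89 FPKM. Its groups did not overlap, but it did not pass (log2 fold change 0.76, adjusted p = 0.0640).

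PPAR and RXR bind a response element made of a pair of half-sites spaced by 1 base (DR1): AGGTCA, any 1 base, AGGTCA. The RefSeq promoter table (GRCm38.p6) held 37 of the 42 members, as windows of 250 bases before to 50 after the gene start. Searched on both strands with at most 2 mismatches outside the spacer, the element was found for 5 of these 37 members (13.5%), against 4.40% of the 27025 genes in that table. An exact match was found for 0 members and for 13 genes in all. The 5 matches, each with 2 mismatches, are shown so that their letters can be compared with the element, in capitals with 8 bases on each side, 5′ to 3′ on the gene's strand:
Slc25a20 (chr9:108662134-108662162, plus strand): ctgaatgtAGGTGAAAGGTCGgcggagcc
Plin2 (chr4:86670264-86670292, minus strand): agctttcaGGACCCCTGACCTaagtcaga
Cd36 (chr5:17835939-17835967, minus strand): tggttctcTGGCCTCTGACTTacttggat
Echs1 (chr7:140116484-140116512, minus strand): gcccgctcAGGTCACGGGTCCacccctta
Etfa (chr9:55512300-55512328, minus strand): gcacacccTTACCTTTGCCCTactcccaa

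The capitals of Plin2, Cd36 and Etfa hold the element on the opposite strand. Only Slc25a20 among these 5 rose, and its match starts at 6 bases after the gene start, where the others start at positions −225 to −63 from it. Of the 10 members that rose, 7 had a window in the table, and 1 of the 7 held a match. The single half-site AGGTCA, searched on both strands, occurred in 7 of 37 members (18.9%) and in 18.1% of all genes, and in 0 of the 7 that rose. These are matches of letters within short windows and no measure of binding.

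Pdk4, whose kinase switches off pyruvate dehydrogenase and so favours fat over glucose as fuel, rose. It measured 4.02, 3.11 and 2.71 FPKM under DMSO and 12.3, 10.1 and 9.53 FPKM under lenvatinib. The groups were far apart, with every lenvatinib library above 9 FPKM and the mean 3.25 times that of DMSO (log2 fold change 1.45, SE 0.143, adjusted p = 0.00815). The call was lost narrowly without DMSO 2 (adjusted p = 0.0650) and without DMSO 3 (0.0519), and with the pairs averaged (0.231), within a range of 7.36e-06 to 0.231 over 17 alternatives. The related kinase genes, which are not members, did not pass: Pdk1 measured 12.0 ± 1.07 and 17.8 ± 3.66 FPKM, Pdk2 26.0 ± 1.61 and 31.1 ± 6.91 FPKM. Pdp2, for a phosphatase that reverses the reaction, measured 3.28 ± 0.0884 and 2.59 ± 0.236 FPKM (adjusted p = 0.149). Ucp2, a mitochondrial carrier of the uncoupling protein family, was the most abundant member, at 319, 322 and 333 FPKM under DMSO and 325, 290.3 and 308 FPKM under lenvatinib. Its groups overlapped and it did not pass (log2 fold change −0.08, adjusted p = 0.469).

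Of the 6 genes of uptake and activation none passed. Slc27a2, a very long-chain acyl-CoA synthetase and transporter, measured 20.0, 13.6 and 15.9 FPKM under DMSO and 20.8, 28.6 and 30.01 FPKM under lenvatinib (log2 fold change 0.65, adjusted p = 0.131). Its groups did not overlap, but lenvatinib 1 was barely above DMSO 1. Slc27a4, the main fatty acid transport protein of enterocytes, measured 36.8, 45.0 and 45.4 against 42.3, 56.9 and 59.4 FPKM, with overlap. Cd36, a fatty acid translocase that blood capillaries and macrophages also express, measured 5.35, 6.50 and 7.06 against 12.5, 7.24 and 6.92 FPKM, so that only lenvatinib 1 stood out. The acyl-CoA synthetases differed among themselves. Acsl3 measured 24.9 FPKM in lenvatinib 1, below every DMSO library (28.7 to 34.1 FPKM), and 49.6 and 49.5 FPKM in lenvatinib 2 and 3. Acsl5 showed the reverse order, with 44.1 FPKM in lenvatinib 1 and 33.9 and 32.9 FPKM in lenvatinib 2 and 3, against 35.2 to 47.2 FPKM in DMSO.

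In the carnitine shuttle 1 of 4 genes rose, against 1.10% of all genes tested. Slc25a20, the carrier that exchanges acylcarnitine for carnitine across the inner mitochondrial membrane, measured 145, 130.1 and 135 FPKM under DMSO and 201, 201 and 193 FPKM under lenvatinib. The lenvatinib libraries lay close together and well above DMSO (log2 fold change 0.54, SE 0.0628, adjusted p = 0.0144). Slc25a20 lost the call in 7 of 17 alternatives. Cpt1a, the rate-limiting carnitine palmitoyltransferase of the outer membrane, was tightly grouped in DMSO at 76.3, 77.1 and 78.3 FPKM and measured 91.5, 115 and 114 FPKM with lenvatinib. Its groups did not overlap, yet it did not pass (log2 fold change 0.45, adjusted p = 0.0830, and 2.35e-05 to 0.898 over 17 alternatives). Cpt2, the inner membrane enzyme, measured 47.6, 60.1 and 60.4 against 55.2, 62.9 and 59.8 FPKM, and Crat, carnitine acetyltransferase, 13.3 ± 0.199 and 13.5 ± 2.005 FPKM.

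Mitochondrial β-oxidation was the largest role, with 15 members. All 15 had log2 fold changes above 0 (0.07 to 0.66, median 0.24), 4 rose, 11 did not pass, and 8 had groups that did not overlap. Without DMSO 1, or with sample weights, 14 of 15 were above 0, since Eci1 was at −0.05 and −0.02. Their summed level was 1303, 1515 and 1493 FPKM under DMSO and 1627, 1829 and 1829 FPKM under lenvatinib, a ratio of means of 1.23. Single genes did not all follow the sum: in lenvatinib 1, Acadm, Echs1 and Etfa lay below their DMSO means. Acaa2, the thiolase that releases acetyl-CoA in the last step of each cycle, rose most. It measured 102, 109 and 101 FPKM under DMSO and 146, 172 and 178 FPKM with lenvatinib (log2 fold change 0.66, SE 0.0907, adjusted p = 0.0255), with no overlap.

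Among the acyl-CoA dehydrogenases, which open each cycle and are named for the chain length they prefer, only the long-chain enzyme passed. Acadl rose from 101, 90.3 and 89.1 FPKM to 133, 130.2 and 125 FPKM (adjusted p = 0.0309). The medium-chain Acadm measured 73.6 ± 1.03 and 88.0 ± 15.2 FPKM, with lenvatinib 1 at 70.5 FPKM below DMSO. The short-chain Acads measured 185 ± 24.1 and 218 ± 23.8 FPKM, and the very-long-chain Acadvl 96.8 ± 10.3 and 111 ± 1.92 FPKM. Whether Acadl changed more than the others was not tested.

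Hadha and Hadhb encode the α and β subunits of the mitochondrial trifunctional protein, which carries out the later steps for long chains. Their genes start 273 bases apart and point away from each other. The sequence before both starts, which both promoter windows cover, is shown because the pair had nearly equal log2 fold changes. It holds no half-site, so no letters are in capitals (GRCm38.p6, chr5:30155003-30155230, 5′ to 3′ on the Hadhb strand, plus):
Hadha and Hadhb: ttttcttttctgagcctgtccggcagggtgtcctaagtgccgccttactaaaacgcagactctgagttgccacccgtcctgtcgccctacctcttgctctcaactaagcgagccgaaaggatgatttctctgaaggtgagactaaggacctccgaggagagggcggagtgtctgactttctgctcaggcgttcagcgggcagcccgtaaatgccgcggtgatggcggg

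Hadha measured 148, 160.4 and 160.4 FPKM under DMSO and 201, 199.5 and 200.2 FPKM under lenvatinib. The lenvatinib libraries were almost equal and all above DMSO (log2 fold change 0.36, SE 0.0574, adjusted p = 0.0403). Hadhb measured 30.3, 35.9 and 37.8 against 40.3, 46.1 and 45.9 FPKM, also without overlap. Its log2 fold change was 0.34, but with a larger spread (SE 0.102) it did not pass (adjusted p = 0.146). The ratio of Hadha to Hadhb was 4.53 ± 0.332 in DMSO and 4.56 ± 0.372 with lenvatinib.

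Of the auxiliary enzymes for unsaturated chains, Eci2, an enoyl-CoA isomerase also found in peroxisomes, rose from 12.9, 13.5 and 14.6 FPKM to 19.9, 17.6 and 19.3 FPKM. It passed by little (adjusted p = 0.0480) and lost the call in 10 of 17 alternatives. Acaa2, Acadl and Hadha each lost it in 9 of 17. Decr1, a dienoyl-CoA reductase, measured 28.3 ± 2.34 and 32.6 ± 1.93 FPKM, and the isomerase Eci1 69.2 ± 17.6 and 76.6 ± 1.40 FPKM, with DMSO 1 low at 49.1 FPKM. The short-chain enzymes Hadh (207 ± 26.1 and 254 ± 33.0 FPKM) and Echs1 (95.9 ± 9.30 and 102 ± 7.48 FPKM) did not pass. Neither did the electron transfer flavoprotein genes Etfa and Etfb or Etfdh, which hand electrons to the respiratory chain, with log2 fold changes of 0.07, 0.23 and 0.12.

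The peroxisomal members had no passing gene among 6, although 5 of the 6 had groups that did not overlap and 5 had an unadjusted p under 0.05. Acaa1b, a peroxisomal thiolase, measured 4.98, 7.75 and 7.44 FPKM under DMSO and 11.9, 25.8 and 25.8 FPKM under lenvatinib. Its mean was 3.14 times higher, with lenvatinib 1 well below the other two, and it did not pass (adjusted p = 0.0880). Its paralogue Acaa1a measured 51.1 ± 1.72 and 65.2 ± 6.97 FPKM. In the GENCODE M21 coding transcripts, 35.5% of the 50-base windows of Acaa1b occur in Acaa1a, so reads could be split between them and single values are uncertain. Crot, carnitine octanoyltransferase, measured 9.29, 10.3 and 10.3 against 11.9, 13.9 and 13.5 FPKM (adjusted p = 0.0896). Pex11a, a peroxisome division factor and known PPARα target, measured 11.04, 11.7 and 12.4 against 18.5, 15.4 and 14.4 FPKM (adjusted p = 0.105), highest in lenvatinib 1. Pex11a passed in 5 of 17 alternatives, among them both other scalings and voom. Ehhadh, the peroxisomal bifunctional enzyme, measured 24.7 ± 4.25 and 32.0 ± 6.07 FPKM, and the reductase Decr2 32.6 ± 3.62 and 38.1 ± 0.430 FPKM.

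Both thioesterases rose. Acot1 encodes a cytosolic and Acot2 a mitochondrial enzyme that splits long-chain acyl-CoA back into fatty acid and coenzyme A. Acot1 measured 4.59, 6.25 and 6.32 FPKM under DMSO and 16.5, 12.2 and 13.2 FPKM under lenvatinib, a mean 2.44 times higher (log2 fold change 1.16, SE 0.150, adjusted p = 0.0206). Acot2 measured 2.68, 3.33 and 3.19 against 5.69, 5.28 and 5.56 FPKM (log2 fold change 0.68, SE 0.0850, adjusted p = 0.0177). Neither gene had overlapping groups, and both were highest in lenvatinib 1. Acot1 lost the call in 8 of 17 alternatives and Acot2 in 7 of 16. The genes are neighbours with 23.5% of the 50-base windows of Acot1 shared with Acot2, so the split of reads between them is uncertain. Acot4, a neighbouring peroxisomal thioesterase outside the set, measured 1.80, 2.48 and 1.98 against 3.27, 3.32 and 3.33 FPKM and did not pass (adjusted p = 0.0715).

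**Figure D2:**
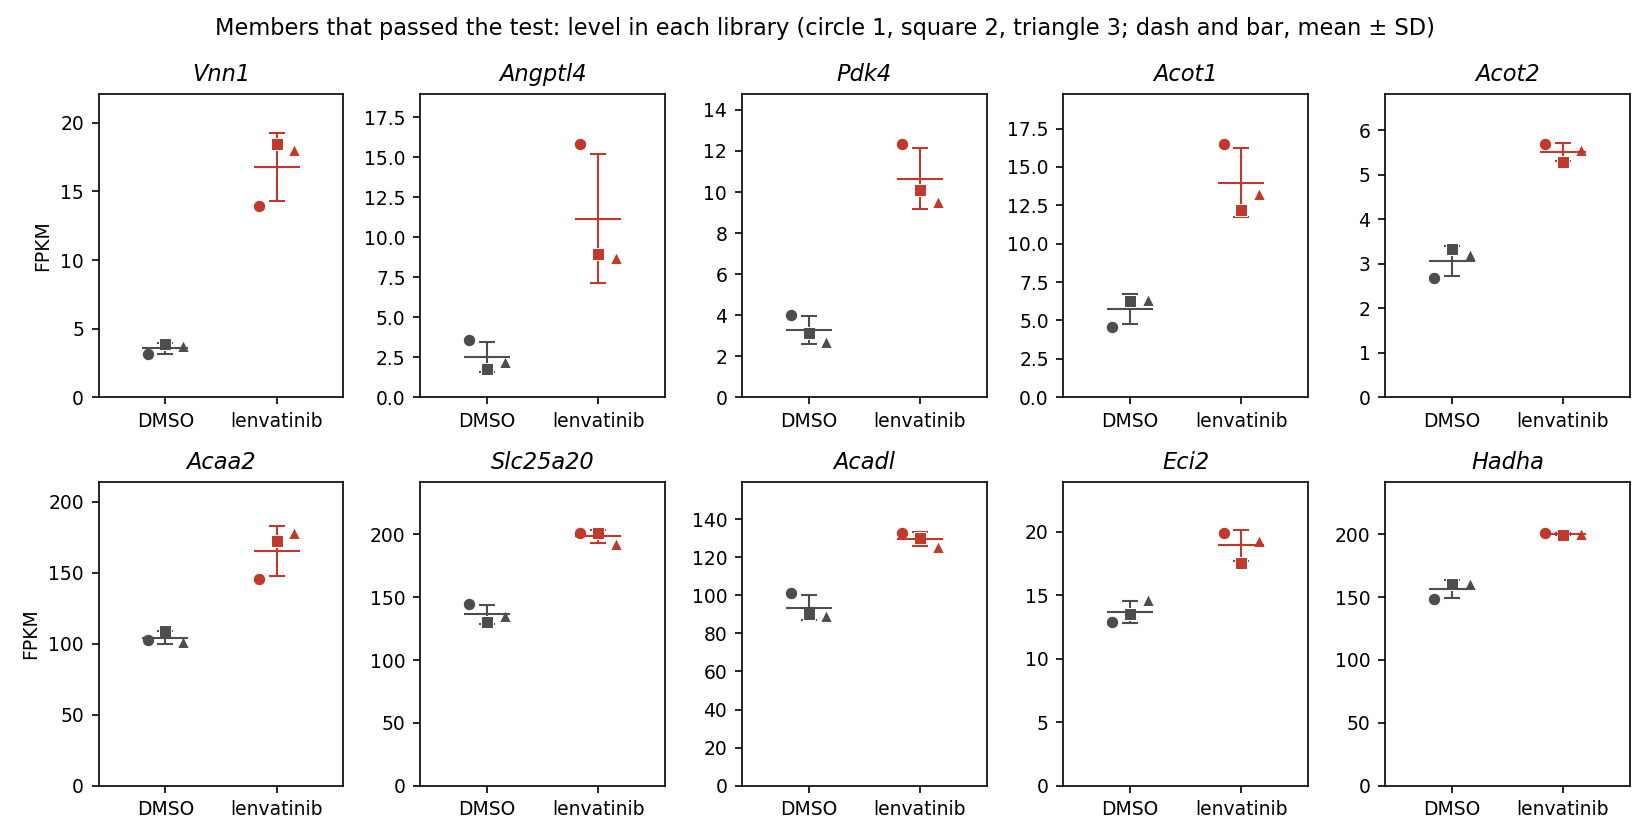
FPKM of the 10 members that passed in each DMSO (grey) and lenvatinib (red) library, with circles for library 1, squares for 2, triangles for 3, and a dash and bar for mean ± SD. The groups are apart in each of the 10 panels, and the change runs from 1.28-fold in Hadha to 4.70-fold in Vnn1.

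Among Plin2, Angptl4 and Vnn1, grouped as lipid droplet and other PPAR targets, 2 of 3 rose, against 1.10% of all genes tested. Vnn1, the pantetheinase that recycles the coenzyme A precursor, had the largest fold change of the members. It measured 3.13, 3.88 and 3.72 FPKM under DMSO and 14.0, 18.5 and 18.0 FPKM under lenvatinib (log2 fold change 1.95, SE 0.126, adjusted p = 0.00182). It passed in 16 of 17 alternatives (3.51e-07 to 0.108), all but the one with the pairs averaged. Angptl4, a secreted inhibitor of lipoprotein lipase, measured 3.60, 1.79 and 2.17 against 15.8, 8.93 and 8.72 FPKM (log2 fold change 1.77, SE 0.276, adjusted p = 0.0375). Library 1 was the highest of each group, and the groups did not overlap. Angptl4 lost the call in 7 of 17 alternatives. Plin2, which coats lipid droplets, measured 22.8, 28.6 and 28.1 against 37.1, 37.0 and 38.5 FPKM. Its groups did not overlap either, but it missed the threshold (adjusted p = 0.0651) and passed in 6 of 17 alternatives (1.68e-04 to 0.690), among them median-ratio scaling, quantile normalization and voom.

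The one ketogenic member, Bdh1, which converts acetoacetate into β-hydroxybutyrate, did not pass at 64.6, 77.7 and 77.7 FPKM under DMSO and 60.8, 71.9 and 73.3 FPKM under lenvatinib. Its groups overlapped. Outside the set, Oxct1, which starts the use of ketone bodies, fell from 36.9, 36.9 and 38.3 FPKM to 23.6, 17.6 and 17.6 FPKM (log2 fold change −0.91, SE 0.118, adjusted p = 0.0206). It lost the call without any of the libraries DMSO 1, 2 or 3 or lenvatinib 2 or 3, within a range of 2.82e-06 to 0.458.

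A wider list of 66 genes of the same pathways, none of them members, was measured beside it. Of its genes, 64 were in the table and 49 were tested, of which 2 rose and 1 fell (Oxct1), with a median log2 fold change of 0.10. Of all genes tested, 1.10% rose and 0.934% fell, with a median of −0.07. Slc27a1, a fatty acid transport protein, rose from 3.33, 3.27 and 3.31 FPKM to 5.59, 4.81 and 5.003 FPKM (adjusted p = 0.0284) and lost the call without any of the libraries named for Oxct1. The lipid droplet genes Cidec (9.60 ± 2.87 and 18.2 ± 1.07 FPKM, adjusted p = 0.1001) and Plin4 (1.83 ± 0.147 and 4.11 ± 1.55 FPKM, adjusted p = 0.108) did not pass, and each had groups that did not overlap. Acad10, a dehydrogenase of the same family as Acadm, measured 2.99 ± 0.505 and 4.36 ± 0.855 FPKM (adjusted p = 0.192). Several classical targets of PPARα in liver were at or near 0 here: Cyp4a14 at 0.00795 FPKM or less, Fgf21 at 0.0556 FPKM or less, and Fabp1 at 0.0986 to 0.668 FPKM.

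The lenvatinib libraries did not move as one. Lenvatinib 1 lay above every DMSO library for 23 of 41 members, lenvatinib 2 for 35 and lenvatinib 3 for 33, where 32.8%, 23.0% and 23.1% of all genes did so. They lay below every DMSO library for 5, 2 and 2 members, against 28.9%, 51.8% and 51.9% of all genes. The median difference of the members from the DMSO mean was 0.19, 0.37 and 0.39 in lenvatinib 1 to 3, against 0.01, −0.10 and −0.10 for all genes. Lenvatinib 1 was above lenvatinib 2 and 3 for 13 members and below both for 25, while over all genes 62.6% were above and 28.7% below. Of the 10 members that rose, 7 were highest in lenvatinib 1: Angptl4, Pdk4, Acot1, Acot2, Acadl, Eci2 and Hadha. Acaa2 and Vnn1 were lowest there, and Slc25a20 was in between. Among the members, the largest gap between lenvatinib 1 and the other two was in Acaa1b, at 0.76 above the DMSO mean in the former and 1.81 above it in the latter, on the log2 scale.

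**Figure D3:**
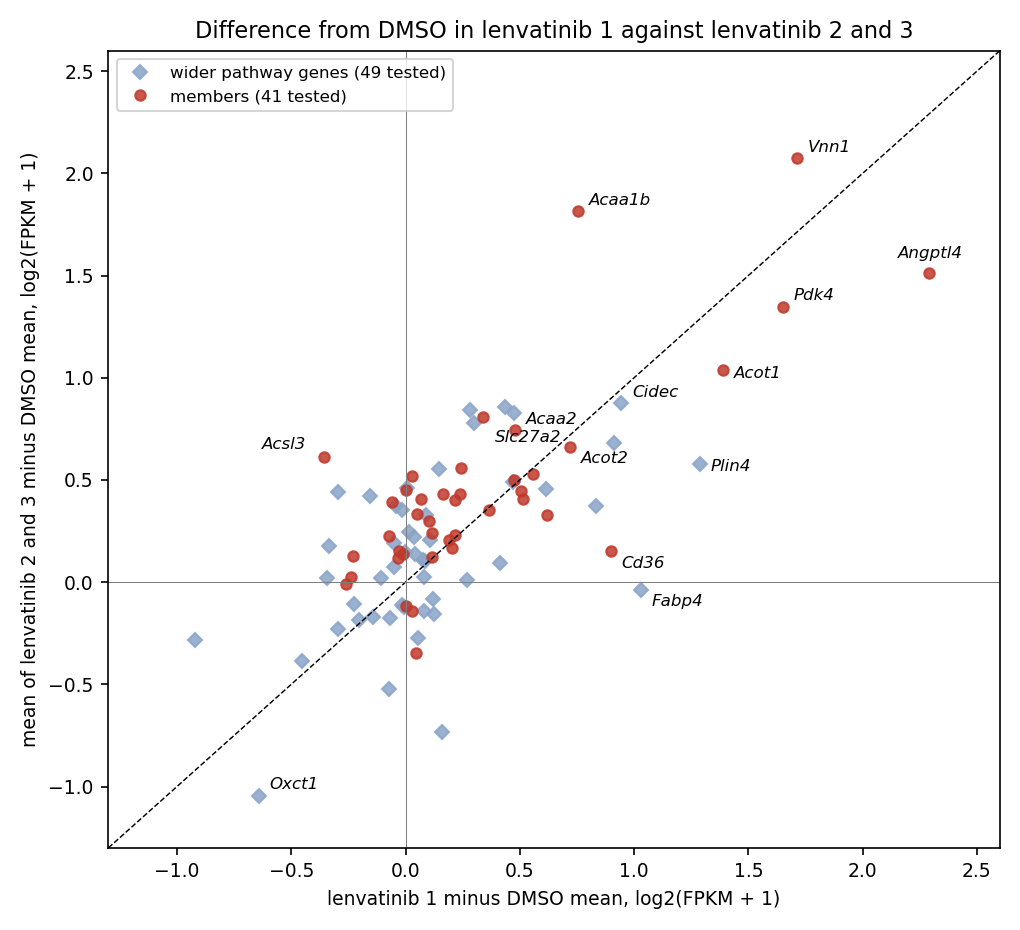
Difference from the DMSO mean on the log2(FPKM + 1) scale in lenvatinib 1 (horizontal) and in the mean of lenvatinib 2 and 3 (vertical), for the 41 tested members (red circles) and 49 wider pathway genes (blue diamonds); points on the dashed line moved equally. Angptl4, Pdk4 and Acot1 lie below the line, while Acaa1b lies far above it and Acsl3 differs in sign.

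Markers of other cells moved with the groups. Of 8 tested small intestinal enterocyte markers 6 rose (Fabp6, Apoa1, Slc10a2, Sis, Naaladl1 and Mttp), and of 4 Paneth cell markers 3 rose. Of all genes tested, 1.10% rose and 0.934% fell. Summed over the enterocyte list without Fabp2, which the colon also expresses and which was left out after its values were seen, levels were 16.7 to 20.7 FPKM under DMSO and 208 to 262 FPKM with lenvatinib. Most of the sum without Fabp2 was Apob under DMSO (11.2 to 15.1 FPKM) and Fabp6 with lenvatinib (148 to 161 FPKM). With Fabp2 the sums were 423 to 561 and 510 to 741 FPKM. Lct, also of the enterocyte list, was at 0.0296 FPKM or less in all 6 libraries and was not tested. Enterocytes of the small intestine express many of the members, and the part of this signal in their change was not tested. Macrophage markers summed to 144 to 170 FPKM and 63.9 to 83.3 FPKM (4 of 4 fell), and fibroblast markers to 368 to 393 FPKM and 230 to 289 FPKM (2 of 4 fell). The fibroblast markers that fell were the collagen genes Col1a1 (log2 fold change −1.23) and Col3a1 (−0.95). Dcn (0.11, adjusted p = 0.735) and Pdgfra (−0.33, adjusted p = 0.270) had overlapping groups and did not pass. The lower fibroblast sum thus came mainly from the collagen genes and says little about Dcn or Pdgfra. In bulk tissue fewer cells of a type and less RNA per cell cannot be told apart.

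General epithelial markers (Epcam, Cdh1, Krt8 and Vil1) summed to 3755 to 3967 FPKM under DMSO and 3552 to 3602 FPKM with lenvatinib, and none of these 4 genes passed. White adipocyte markers, which share Plin and PPARγ biology with the set, were 10.1, 56.0 and 58.5 FPKM under DMSO and 64.6, 36.6 and 35.1 FPKM under lenvatinib. They were thus lowest in DMSO 1 and highest in lenvatinib 1, as were Cd36 and Fabp4 (21.0, 42.5 and 40.5 against 68.8, 34.5 and 30.2 FPKM). Their groups overlapped, and none of the 4 tested passed. Endothelial markers, of cells that express Cd36, summed to 25.9 to 29.3 and 21.7 to 31.5 FPKM. Most of each sum was Pecam1 (13.6 to 20.5 FPKM over the 6 libraries). Kdr was lower with lenvatinib without overlap (3.94 ± 0.571 and 1.71 ± 0.559 FPKM). Gpihbp1 was higher with overlap (1.44 ± 0.446 and 2.13 ± 0.431 FPKM), and none of the 4 endothelial markers passed. Skeletal muscle markers summed to 10.4 to 13.5 and 12.2 to 13.8 FPKM and smooth muscle markers to 532 to 558 and 573 to 624 FPKM. Of the hepatocyte markers, Alb, Ahsg and Apoh were each at 0.443 FPKM or less in every library, and the list summed to 3.63 to 3.98 FPKM under DMSO and 5.84 to 10.7 FPKM under lenvatinib, most of it Cyp2e1.

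**Figure D4:**
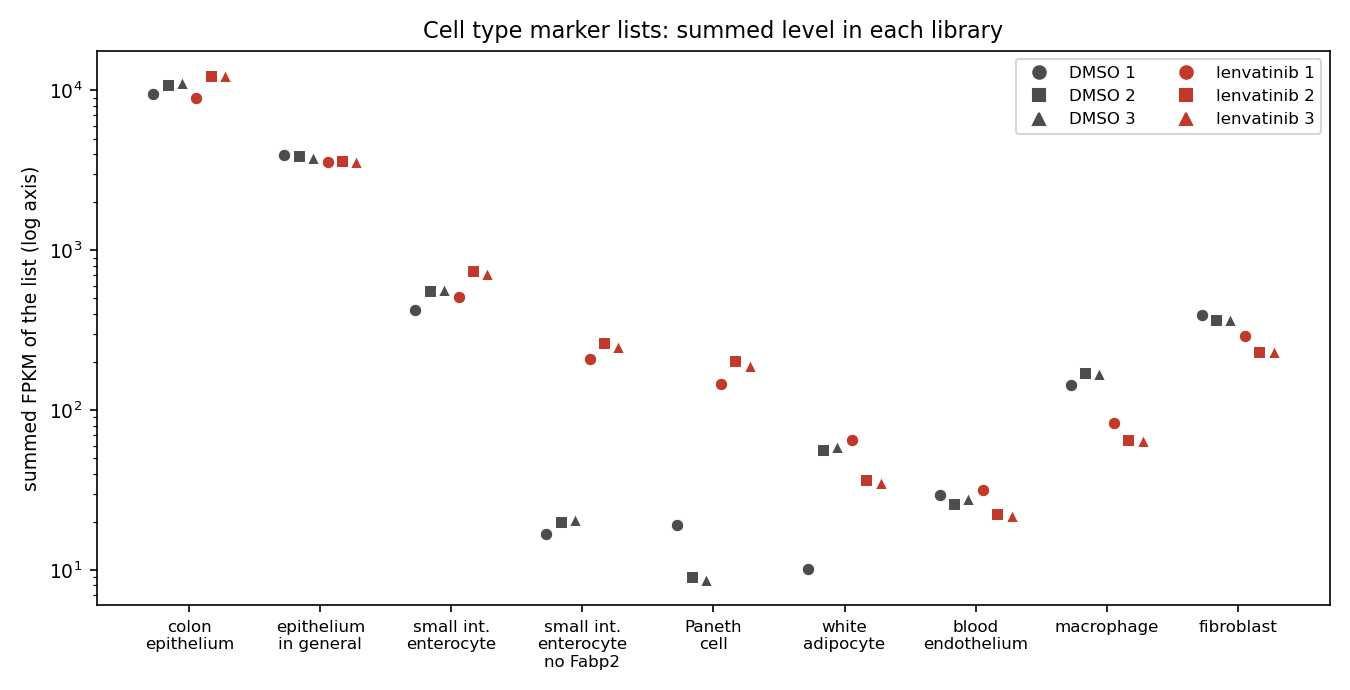
Summed FPKM of each marker list (log axis) in the 3 DMSO (grey) and 3 lenvatinib (red) libraries, circles for library 1, squares for 2 and triangles for 3. The enterocyte list without Fabp2 (16.7 to 20.7 against 208 to 262 FPKM) and the Paneth cell list are higher in every lenvatinib library, and the macrophage and fibroblast lists lower.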

How the data were processed

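RNA sequencing libraries of mouse colon, 3 labelled DMSO and 3 lenvatinib, were prepared from TRIzol-extracted total RNA (per the labels). The authors deposited 1 table of FPKM values for 25339 genes. Per the submitters' processing notes, HTSeq was used with build GRCm39. Its version, the aligner, the annotation and the strand setting were not given in the sources used here. Without a known strand setting, overlapping genes cannot be told apart. Whole reads were recovered from the steps of the deposited FPKM values for 23943 of 23951 genes above 0 (99.97%, within 0.01 reads). These reads gave the depth and the voom alternative, and the precision at this depth limits only low genes.

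The 11774 genes whose mean reached 1 FPKM were compared on log2(FPKM + 1) over all 6 libraries by limma 3.58.1 (R 4.3.3; robust empirical Bayes with a trend). The script was tested on simulated data. Library sizes for voom were scaled by median ratios. Members and lists were chosen with earlier results of these data known. Named in full are the members that passed and, in each role, the 3 with the lowest unadjusted p. From each wider sublist these are the genes that passed and the 2 with the lowest p. Pdk2, Pparg, Fabp4, Fabp1, Cyp4a14 and Fgf21 were added after their values were seen. Alternatives covered pseudocount, filter, scaling, variance prior, sample weights, voom, blocks, averaged pairs and leaving out each library. Promoters are from RefSeq (GRCm38.p6) and transcripts from GENCODE M21 on the same build, matched by symbol. Of the wider list, 2 genes were not analysed here, as were the marker genes Ucp1 and Myh4. Results of some genes named by this rule are not reported here.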

Additional observations from a re-analysis of the deposited data

How the results depend on the processing

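The count of members that rose (10) was 8 to 12 with the smaller pseudocount, the stricter filter (mean of at least 5 FPKM), both scalings, the plain variance prior and voom. It was 4 with no filter on low values, 30 with sample weights (3 lower), 0 with libraries 2 and 3 averaged, 2 with them as a random block, and 1 to 24 when leaving out 1 library. Whether replicate numbers pair the libraries could not be told. Deviations of same-numbered libraries correlated at −0.20 to −0.15, and those of differently numbered libraries at −0.19 to 0.19. Since libraries 2 and 3 of each group were close to identical, these correlations mostly reflect how library 1 differed from them. With the replicate number as a block 3 members rose (Angptl4, Pdk4 and Vnn1), 0 wider genes rose or fell, and 18 genes rose and 11 fell over all genes. Over all genes tested, 129 rose and 110 fell. This became 74 and 66 with no filter, 2252 and 5330 with sample weights, 1 and 2 with averaged pairs, 27 and 19 with the random block, and 22 to 1162 and 22 to 3294 when leaving out 1 library. In the wider list, 2 rose and 1 fell. This became 0 and 0 with no filter, averaged pairs or the random block, 22 and 12 with sample weights, and 0 to 18 and 0 to 6 when leaving out 1 library. There, 1 rose with the stricter filter or the plain prior and 4 with quantile normalization. Log2 fold changes turned sign for Ppard (0.0148 with median-ratio scaling, 0.0039 with sample weights, 0.01497 with voom, and −0.124 to 0.0274 when leaving out 1 library, positive without lenvatinib 1), and, without DMSO 1, for Cpt2 (−0.0252 to 0.144) and Ppara (−0.0758 to 0.233). Of the other members, Eci1 turned negative without DMSO 1 (−0.0483) and with sample weights (−0.0242), Acsl1 positive with quantile normalization (0.0097), and Crat, at 0.0079, negative without DMSO 2, without lenvatinib 2, without lenvatinib 3 and with libraries 2 and 3 averaged or as a random block (−0.0651 to −0.0036). None of these 6 genes passed as reported, nor in the settings that turned their sign. The cause of these moves was not tested, beyond fewer libraries or samples where some were left out or averaged, and more genes tested with no filter.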
